A study of Macaca mulatta with 56 samples.

Results

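The astrocyte genes were 10 transcripts chosen by symbol from a table of 17807 gene identifiers: GFAP, S100B, FABP7, AQP4, ALDH1L1, SLC1A2, SLC1A3, GJA1, GLUL and ALDOC. Each symbol stood on 1 identifier. All 10 were used in amygdala. In hippocampus, occipital cortex and prefrontal cortex a row was used if its mean log2(value + 1) over these 3 regions lay within 2 of that in amygdala, because the table does not hold the same transcript under every identifier in amygdala and elsewhere. This left 8 members there, and 13520 of the 17807 identifiers (75.9%) met the same rule. A matching level does not show that a row holds the same transcript.

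Astrocytes are the glial cells that clear glutamate from synapses, buffer potassium and water, feed neurons and wrap capillaries with their endfeet. SLC1A2 and SLC1A3 encode their glutamate transporters and GLUL the glutamine synthetase that turns the glutamate into glutamine, AQP4 the water channel of endfeet, and GJA1 connexin 43, the gap junction protein that couples them. GFAP encodes their intermediate filament, ALDH1L1 a folate enzyme, ALDOC a brain aldolase, S100B a calcium-binding protein and FABP7 a fatty acid-binding protein of astrocytes and radial glia. S100B is also made by some oligodendrocytes, and SLC1A2 and GLUL at lower levels by other cells.

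The animals were 14 female rhesus macaques aged 19.4 to 23.2 years, and all 14 ate a Western-style diet in which fat gave 36% and sugars 18.5% of calories. About 6 weeks after the diet began the ovaries and uterus of all 14 were removed. In 7 of them capsules released estradiol (HT) and held serum estradiol at a mean of 82.1 pg/mL, while the other 7 carried empty capsules (OvH), with a mean of 6.6 pg/mL. Exposure lasted 30 months by one statement of the study and 32 months by another. Messenger RNA of about 30 mg of pulverized tissue from each of 4 regions of each animal gave 56 libraries, so each of 8 groups of region and treatment had 7. Values are the authors' upper-quartile normalized read counts, given as mean ± SD with n = 7, and levels are compared within a gene and not between genes, whose lengths were not used. In bulk tissue fewer astrocytes and less RNA per astrocyte cannot be told apart.

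Libraries held 34.63 to 93.34 mega-reads. In amygdala the HT libraries had 53.1 ± 9.29 mega-reads and the OvH libraries 65.15 ± 14.92 (exact permutation p = 0.0921, two-sided), and after the authors' normalization their summed values were 71.12 ± 4.463 and 61.36 ± 4.08 mega-reads in normalized units (exact permutation p = 0.00291). Ribosomal protein transcripts moved with treatment there: 54 of 62 rose in HT and 0 fell, with a median log2 difference of 1.24. In hippocampus 4 libraries stood apart. Those of animals 30 and 43, both OvH, each correlated best with the other of these 2 animals in the remaining regions (r = 0.347 and 0.196, against 0.137 and 0.186 with their own) and held TTR, a transcript of choroid plexus, at 114 and 26.98. Those of animals 33 (OvH) and 40 (HT) held TTR at 1325000 and 1462000, against 2138 to 49610 in the other 10. Their effect on the hippocampus results is given beside those of S100B, FABP7 and AQP4, beside the region comparisons they change, and in the closing section.

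The 2 members with no usable row outside amygdala were GFAP and ALDOC. GFAP (ENSMMUG00000013115) ranged in amygdala from 67119 to 343820, and its row averaged 0.179 in hippocampus and 0.067 in prefrontal cortex, and was listed at 0 in occipital cortex. ALDOC (ENSMMUG00000020322) ranged in amygdala from 90631 to 168259, and its row averaged 0.0839 in hippocampus and was listed at 0 in every library of both cortices. Differences of -17.2 and -16.9 on the log2 scale put both far outside the limit. The other 8 members lay between -1.19 (AQP4) and 0.70 (SLC1A2), so no member was near the limit. All 10 passed the filter on low values (a mean of at least 10) wherever they were used.

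The first comparison asked what estradiol changed in the amygdala. S100B and FABP7 were each about 2-fold more abundant in HT animals, and the other 8 members, GFAP, the water channel, the transporters and the enzymes among them, did not pass the test. The test was limma on log2(value + 1) over all rows, two-sided, with Benjamini-Hochberg adjusted p and a threshold of 0.05. Of all 16129 rows tested, 6.89% passed (994 higher and 118 lower in HT). With equal totals the split was 617 higher and 1013 lower, and by edgeR 675 and 343, and the median log2 difference of all rows moved from 0.01 to -0.20 and -0.10. The 2 of 10 members compare with that share. Over the members the median log2 difference was 0.01.

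**Figure D1:**
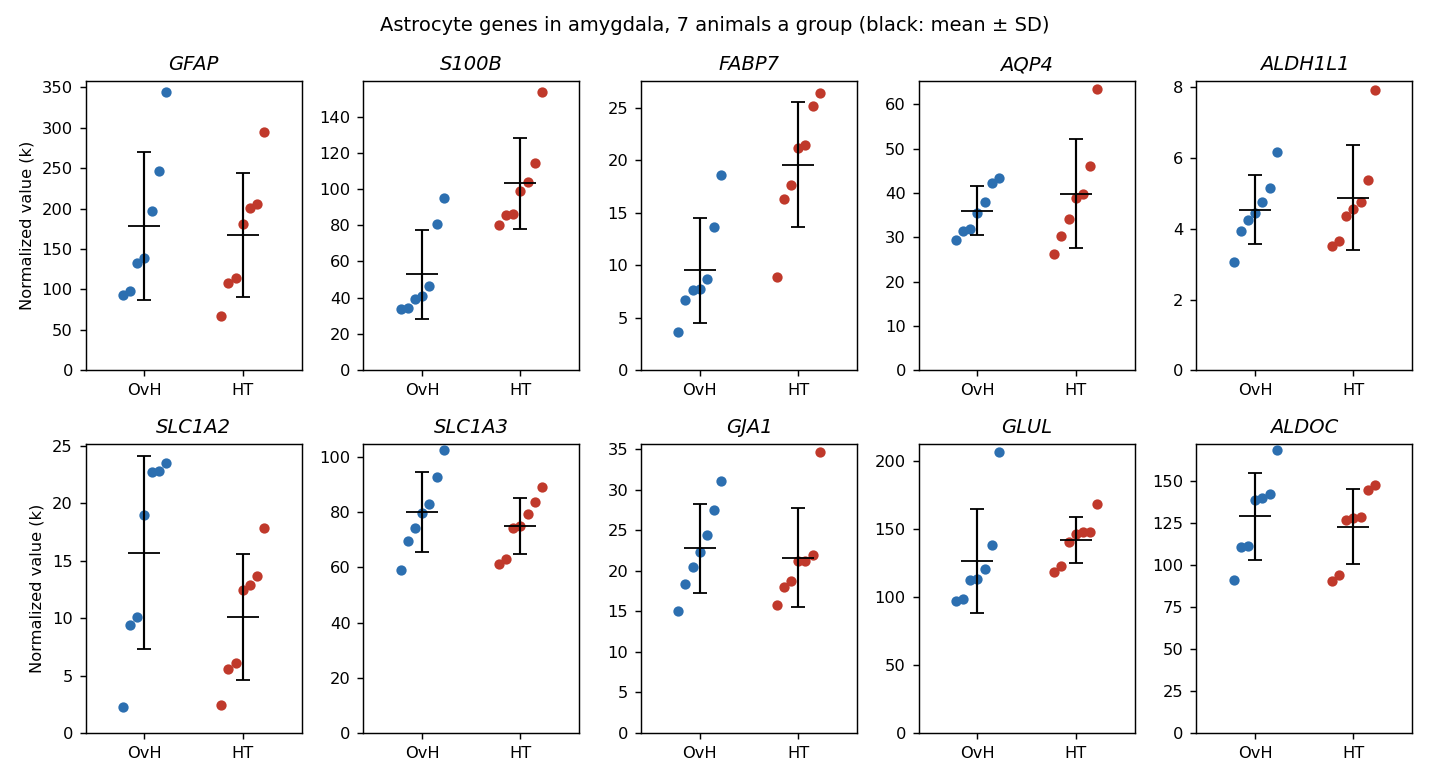
Normalized values (in k on the axis) of the 10 astrocyte genes in the amygdala libraries, 7 OvH (blue) and 7 HT (red) animals in each panel, with the mean and SD in black. S100B lies between 80102 and 153338 in HT and has 5 OvH libraries below that range. The ranges of the 2 groups overlap for GFAP and the other genes not called. Of these, GLUL has all 7 HT animals above the OvH median, and SLC1A2 has 4 OvH animals above every HT animal.

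S100B (ENSMMUG00000063077) had a lowest, median and highest value of 80102, 98850 and 153338 in HT amygdala. In OvH these were 33512, 41036 and 94998. All 7 HT animals stood above the OvH median, 4 stood above every OvH animal, and 5 OvH animals stood below every HT animal. The 2 high OvH animals, 30 and 32, lay inside the HT range. The means were 103195 ± 25118 in HT and 52896 ± 24566 in OvH. The fitted log2 difference was 1.05 (SE 0.24, limma adjusted p = 0.0146), which is 2.07-fold. Here and below a fold is taken from the fit on log2 values and is not the ratio of the printed means. It passed without any 1 animal (log2 0.95 to 1.21), by edgeR's quasi-likelihood test on reads recovered from the values (0.87, adjusted p = 0.0391) and with libraries scaled to equal totals (0.83, adjusted p = 0.0296).

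FABP7 (ENSMMUG00000064586) had a lowest, median and highest value of 8907, 21220 and 26426 in HT amygdala. In OvH these were 3612, 7781 and 18633. All 7 HT animals were above the OvH median, 4 stood above every OvH animal, and 5 OvH animals stood below every HT animal. HT animals 37, 38 and 39 lay below the highest OvH animal, 30. The means were 19580 ± 5951 and 9522 ± 5002, and the fitted log2 difference was 1.13 (SE 0.31, limma adjusted p = 0.0333), which is 2.19-fold. This call was less steady than that of S100B: it was lost by edgeR (0.94, adjusted p = 0.0599), with equal totals (0.92, adjusted p = 0.0576) and without any 1 of animals 33, 34, 35, 36, 37, 40, 41, 42 and 43 (log2 0.93 to 1.17, adjusted p = 0.0552 to 0.0746). By DESeq2 FABP7 passed (1.02, adjusted p = 0.00982).

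Both calls were lost when the mean log2 level of 13 oligodendrocyte and myelin genes entered the model (S100B 0.91, limma adjusted p = 0.0773, and FABP7 1.24, adjusted p = 0.0688), with 3.01% of all rows called. That mean was 13.97 ± 0.49 in HT and 13.51 ± 0.42 in OvH. With the mean of the ribosomal protein transcripts as a covariate the differences were 0.40 and 0.43 (adjusted p = 0.9999 for both) and 0 of the 16129 rows were called by limma, with 363 at an unadjusted p under 0.05. The ribosomal mean differed with treatment, so this covariate also takes up the treatment, and what part ribosomal transcripts or summed values had in the S100B and FABP7 differences was not tested.

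GFAP, ALDH1L1 and ALDOC had small fitted differences between groups, with a wide interval for GFAP. GFAP had a lowest, median and highest value of 67119, 180922 and 295221 in HT and of 93597, 138257 and 343820 in OvH. Its groups overlapped almost throughout, with means of 167281 ± 76876 and 178541 ± 91112 (log2 -0.09, 95% interval -0.80 to 0.63, limma adjusted p = 0.913). ALDH1L1 (ENSMMUG00000012488) had means of 4880 ± 1491 in HT and 4542 ± 973 in OvH (log2 0.08, interval -0.30 to 0.46), and HT animal 36 stood alone at 7939. ALDOC had 122845 ± 22367 and 128891 ± 25811 (log2 -0.07, interval -0.42 to 0.29). None of these 3 passed the test, and their signs turned in alternatives given in the closing section.

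The glutamate-handling members did not pass either. SLC1A2 (ENSMMUG00000004329), the transporter known to carry most glutamate uptake in the forebrain, had the widest spread of the 10. Its lowest, median and highest values were 2440, 12485 and 17822 in HT and 2252, 18987 and 23567 in OvH. The 4 highest animals (30, 31, 35 and 43) were all OvH, and the lowest was OvH animal 32. The means were 10130 ± 5493 and 15699 ± 8414 (log2 -0.56, SE 0.51, limma adjusted p = 0.574). Without animal 32 the difference was -0.98 (adjusted p = 0.112) and without HT animal 40 it was -0.26 (adjusted p = 0.817). SLC1A3 (ENSMMUG00000006202) had 75079 ± 10188 in HT and 80061 ± 14571 in OvH (log2 -0.08, interval -0.39 to 0.22). GLUL (ENSMMUG00000022884) had 141727 ± 16956 and 126579 ± 38034 (log2 0.20, interval -0.16 to 0.56), with all 7 HT animals above the OvH median and 1 OvH animal, 31, above them all at 206842.

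The members of the endfoot and of gap junctions lay within the spread. AQP4 (ENSMMUG00000014934) had 39819 ± 12251 in HT and 35977 ± 5476 in OvH (log2 0.11, interval -0.26 to 0.47). GJA1 (ENSMMUG00000005225) had 21659 ± 6162 and 22788 ± 5481 (log2 -0.08, interval -0.46 to 0.30). HT animal 39 was the highest library for both genes, at 63374 and 34726.

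Wider astrocyte lists gave few calls in amygdala, against the 6.89% of all rows. Of 39 further astrocyte genes 1 rose and 0 fell (median -0.09). With equal totals 1 was called higher and 3 lower (median -0.30), where 10.11% of all rows were called (median -0.20). The gene that rose was MT3, a metal-binding metallothionein of brain (log2 1.15, limma adjusted p = 0.0191). The next by p were MLC1 of endfeet (-0.49, adjusted p = 0.119), the lipid carrier gene APOE (-0.64, adjusted p = 0.158) and the GABA transporter gene SLC6A11 (-0.45, adjusted p = 0.165), and none of them passed. Without animal 33 the difference of MT3 was 1.04 (limma adjusted p = 0.0514), with the oligodendrocyte covariate 1.19 (adjusted p = 0.0549), and with the ribosomal covariate it turned to -0.18 (adjusted p = 0.9999).

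Of 20 reactive astrocyte genes, those known to rise in injured or inflamed tissue, 0 passed by limma (3 at an unadjusted p under 0.05), 0 by edgeR and 1, higher, by DESeq2, with a median of -0.05. With equal totals 1 was called lower and 0 higher (median -0.26). SYNM, an intermediate filament gene, stood at 0.51 (adjusted p = 0.0644), LGALS3 at 0.48 and MAOB at -0.32.

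Of 19 genes of the glutamate and glutamine cycle 0 passed by limma (2 unadjusted), against 6.89% of all rows. By edgeR 1 passed and by DESeq2 1, both lower, and the limma median was -0.21. With equal totals 2 were called lower (9 unadjusted, median -0.42), where 10.11% of all rows were called (median -0.20). The aminotransferase gene GOT1 stood at -0.35 (adjusted p = 0.205) and did not pass. Of 14 endfoot and gap junction genes 0 passed by limma (2 unadjusted), and 1 by edgeR and 1 by DESeq2, both lower, with a median of -0.14. With equal totals 2 were called lower (median -0.35). CLDN5, a tight junction gene of endothelium, stood at -0.69 (adjusted p = 0.0982). The 2 unadjusted endfoot genes, CLDN5 and MLC1, are also counted among the endothelial and the further astrocyte genes. Other genes stand on more than 1 list too, so the counts of the lists are not separate.

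Related paralogs, whose reads could be split with members if the counting could not separate them, gave 2 higher and 0 lower of 6, against 6.89% of all rows. They were the S100B relative S100A1 (0.73, limma adjusted p = 0.0284) and the FABP7 relative FABP5 (0.75, adjusted p = 0.0306), and FABP3, another fatty acid-binding gene, stood at 0.55 and did not pass (adjusted p = 0.215). Neither call held by edgeR (adjusted p = 0.0631 and 0.0633), with the replicate block (adjusted p = 0.0529 and 0.0508) or without any 1 of animals 33, 34, 35, 36, 40 and 43 (adjusted p up to 0.0743 and 0.0794). S100A1 was also lost without 38, and FABP5 without 37 or 42 and with equal totals. With the oligodendrocyte covariate neither S100A1 nor FABP5 passed (limma adjusted p = 0.121 and 0.146). With the ribosomal covariate their differences were 0.04 and 0.05 (adjusted p = 0.9999 for both). By DESeq2 S100A1 and FABP5 passed (adjusted p = 0.0153 and 0.0184).

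Markers of other cells moved in the same libraries, against the 6.89% of all rows. Of 13 oligodendrocyte and myelin genes 2 rose and 0 fell (median 0.41), with their summed level at 786700 to 1590000 in HT and 374600 to 1279000 in OvH. They were GJB1, a connexin of myelin-forming cells (1.14, limma adjusted p = 0.0193), and the myelin protein gene MBP (1.14, adjusted p = 0.0297). By edgeR 1 was called, and MBP was not (adjusted p = 0.0663), while by DESeq2 MBP passed (adjusted p = 0.00974). MBP was also lost without any 1 of animals 33, 34, 35, 36, 37, 41 and 43 (adjusted p up to 0.0786), and GJB1 without 33 (adjusted p = 0.0514). Of 14 neuron genes 0 rose and 2 fell (median -0.34, summed level 570500 to 802600 in HT and 618900 to 922700 in OvH). They were the synaptic vesicle gene SYP (-0.71, limma adjusted p = 0.0397) and the endocytosis gene DNM1 (-0.66, adjusted p = 0.0439). Both were lost without any 1 of animals 33, 34, 35, 36, 37, 38, 40, 42 and 43 (adjusted p up to 0.0981 and 0.11). Both passed by edgeR (adjusted p = 0.0270 and 0.0277), by DESeq2 (0.00737 and 0.00868) and by limma with equal totals (0.0145 and 0.0149). With equal totals 3 neuron genes were called lower. With the oligodendrocyte covariate GJB1 (adjusted p = 0.11), MBP (adjusted p = 0.162) and DNM1 (adjusted p = 0.0911) were lost. Of 10 microglia genes 1 rose, AIF1 (1.06, limma adjusted p = 0.0069, and 0.113 with the replicate block), with a median of 0.12. By limma 0 passed of 7 oligodendrocyte precursor genes (median -0.21, 1 at an unadjusted p under 0.05), 9 endothelial genes (median -0.29, 2 unadjusted), 7 pericyte and smooth muscle genes (median -0.24, 0 unadjusted), 5 ependyma and choroid plexus genes (median -0.43, 0 unadjusted) and 5 genes of meninges (median 0.63, 0 unadjusted). By edgeR and by DESeq2 1 of the endothelial genes was called lower, and 0 of the other 4 lists. No gene of these lists was at 0 in all amygdala libraries. The part of these cells in the S100B and FABP7 differences was tested only through the oligodendrocyte covariate above, and for the others was not tested.

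The same comparison outside the amygdala gave no calls. By limma 0 of the 8 members passed in hippocampus, occipital cortex or prefrontal cortex (1 in each at an unadjusted p under 0.05), and 0 by edgeR or DESeq2. The share over all rows was 0% in each region, of 16317, 16138 and 16286 rows, with 335, 303 and 603 at an unadjusted p under 0.05. DESeq2 called 12, 0 and 6 of all rows and edgeR 0 in each. In every region 6 of the 8 differences were above 0, with medians of 0.14, 0.16 and 0.20, against 0.016, 0.002 and 0.001 over all rows. S100B and ALDH1L1 lay below 0 in both cortices, and SLC1A3 and GJA1 in hippocampus. The regions come from the same animals, so these counts are not separate.

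**Figure D2:**
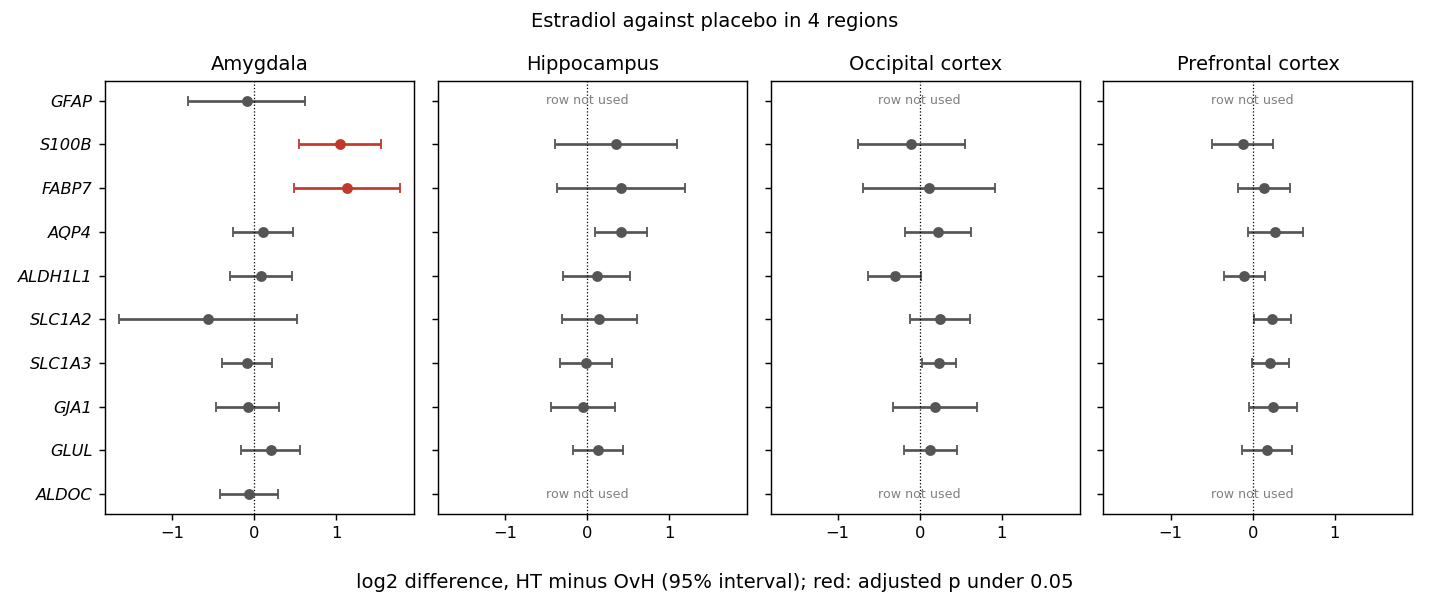
Log2 difference, HT minus OvH, with its 95% interval for each astrocyte gene in 4 regions, 7 animals a group. S100B and FABP7 in amygdala (1.05 and 1.13) are the points past an adjusted p of 0.05, drawn in red, and GFAP and ALDOC have no usable row outside amygdala.

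S100B and FABP7 were not called outside the amygdala. S100B had 51744 ± 20843 in HT and 42318 ± 18906 in OvH hippocampus (log2 0.35, interval -0.39 to 1.10). It stood there at 0.07 without animal 30, at 0.07 without 30 and 43, and at 0.26 without 33 and 40. In occipital cortex it had 31494 ± 14458 and 34706 ± 17584 (-0.11, interval -0.76 to 0.55) and in prefrontal cortex 26392 ± 4187 and 29562 ± 8642 (-0.12, interval -0.49 to 0.24). FABP7 had 11997 ± 4974 and 9627 ± 5287 in hippocampus (0.41, interval -0.37 to 1.19), and stood at 0.15 without animal 30, 0.11 without 30 and 43, and 0.40 without 33 and 40. In occipital cortex it had 5863 ± 4856 and 5056 ± 2899 (0.12, interval -0.69 to 0.92) and in prefrontal cortex 5292 ± 688 and 4929 ± 1314 (0.14, interval -0.18 to 0.45). The groups overlapped in all 6 of these comparisons, and the intervals of prefrontal cortex are the narrowest.

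AQP4 had the smallest p of the members in hippocampus. Its lowest, median and highest values were 19820, 24563 and 35955 in HT and 14476, 20124 and 22865 in OvH. In HT 5 animals stood above every OvH animal, and 3 OvH animals stood below every HT animal. The means were 25516 ± 5067 and 19168 ± 3306 (log2 0.41, limma unadjusted p = 0.0141, adjusted p = 0.9999). Without the libraries of animals 33 and 40 the difference was 0.34 (unadjusted p = 0.0531), and without those of 30 and 43 it was 0.39 (unadjusted p = 0.0187). AQP4 stood at 0.22 in occipital and 0.28 in prefrontal cortex.

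In occipital cortex the smallest p was that of SLC1A3, with a lowest, median and highest value of 59868, 65194 and 75352 in HT and of 50623, 55397 and 65581 in OvH. All 7 HT animals stood above the OvH median and 6 OvH animals below every HT animal. The means were 66627 ± 5116 and 56687 ± 4708 (log2 0.23, limma unadjusted p = 0.0324, adjusted p = 0.999). SLC1A3 also stood at 0.22 in prefrontal cortex (unadjusted p = 0.0545) and at -0.01 in hippocampus. SLC1A2 had the smallest p in prefrontal cortex, with 14806 ± 1455 in HT and 12625 ± 1973 in OvH (0.24, limma unadjusted p = 0.0387, adjusted p = 0.9999). ALDH1L1 in occipital cortex lay the other way, with 3919 ± 883 and 4839 ± 975 (-0.31, unadjusted p = 0.0619).

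Each animal's mean over the 3 regions gave the same picture. By limma 0 of 8 members and 0% of 16354 rows were called (517 rows at an unadjusted p under 0.05). AQP4 stood at 0.30 (interval 0.12 to 0.48, unadjusted p = 0.00259, adjusted p = 0.9999) and SLC1A2 at 0.21 (interval 0.03 to 0.40, unadjusted p = 0.0253). S100B stood at 0.04 (interval -0.34 to 0.43) and FABP7 at 0.22 (interval -0.29 to 0.73). Without animals 30 and 43 AQP4 stood at 0.25, S100B at -0.14 and FABP7 at 0.02. Without 33 and 40 they stood at 0.26, -0.03 and 0.15.

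A call in 1 region and not in others is not a difference between regions, so that difference was tested within animals, as amygdala minus the mean of the other 3 regions. By limma 0 of 8 members and 0% of 13520 rows passed, with 3084 rows at an unadjusted p under 0.05. The HT difference of S100B was larger in amygdala by 1.01 (interval 0.37 to 1.64, adjusted p = 0.0735) and that of FABP7 by 0.91 (interval 0.18 to 1.65, adjusted p = 0.135). These missed the threshold, and 1 animal could decide it: S100B passed without OvH animal 30 (1.26, adjusted p = 0.036), HT animal 39 (1.09, adjusted p = 0.0391) or HT animal 40 (1.07, adjusted p = 0.0495), and FABP7 passed without animal 30 (1.22, adjusted p = 0.036). Without animals 30 and 43 together neither did (adjusted p = 0.0772 for both). SLC1A2 stood at -0.78 (interval -1.81 to 0.26, adjusted p = 0.366).

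Regions were compared with the animal as a block over hippocampus, occipital cortex and prefrontal cortex. Hippocampus held more S100B, FABP7, AQP4 and GJA1 than either cortex and less GLUL, and the cortices differed in 4 members. The S100B call against occipital cortex was lost in several alternatives given below. Amygdala was left out of these tests because its level chose the rows. Around 43.4% to 50.7% of all 16354 rows passed in these comparisons, so a call here is common.

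**Figure D3:**
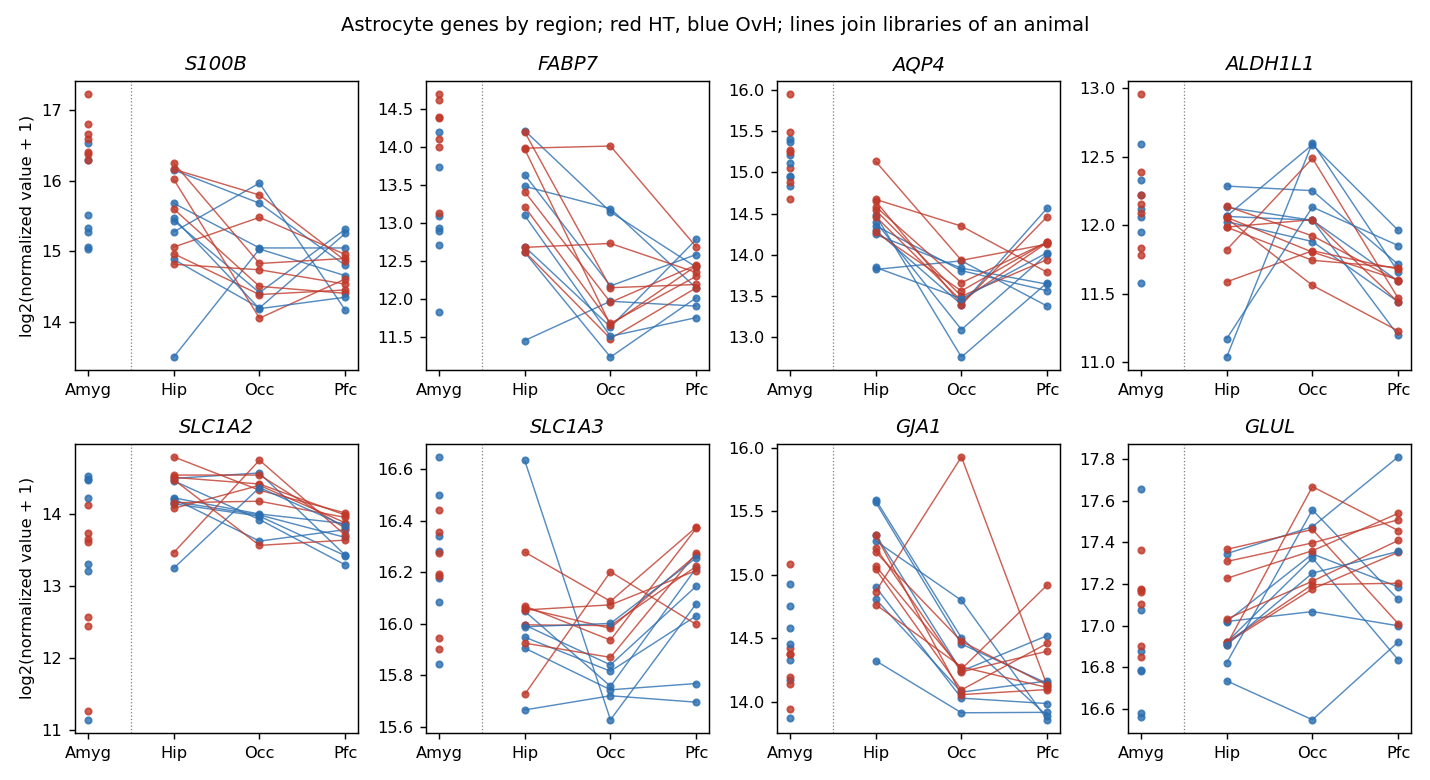
Log2(normalized value + 1) of 8 astrocyte genes in the 4 regions, 1 point a library, with lines joining the 3 tested regions of an animal (red HT, blue OvH). GJA1 lies higher in hippocampus than in prefrontal cortex in 14 of 14 animals, and the amygdala points, left of the dotted line, entered no test between regions.

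Hippocampus against prefrontal cortex gave 6 members higher and 1 lower in hippocampus, against 43.4% of all rows called. GJA1 was 1.86-fold higher (log2 0.89, SE 0.14, limma adjusted p = 5e-06), in 14 of 14 animals. FABP7 was 1.91-fold higher (0.94, SE 0.19, adjusted p = 0.000188), in 12 of 14. S100B stood 0.64, SLC1A2 0.48 and AQP4 0.44 higher, each in 12 of 14. ALDH1L1 was higher by 0.31 in 11 of 14 (adjusted p = 0.0372). Its call was lost with equal totals (adjusted p = 0.0852), without any 1 of animals 31, 32, 33, 34, 36, 37, 39, 40, 41 and 42 (adjusted p = 0.0505 to 0.0974), and without the hippocampus libraries of animals 33 and 40 (adjusted p = 0.148). Without those of 30 and 43, its 2 lowest hippocampus libraries at 2100 and 2304, it was called at a difference of 0.48. GLUL was lower by 0.23 in 11 of 14 (adjusted p = 0.0192, and 0.0595 with no replicate block). SLC1A3 stood at -0.11 (adjusted p = 0.221), but was called lower without animal 30, its highest hippocampus library at 101630 (adjusted p = 0.0321), and without the hippocampus libraries of 30 and 43 (adjusted p = 0.0246).

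Hippocampus against occipital cortex gave 4 higher and 1 lower, against 50.7% of all rows. FABP7 was 2.08-fold higher (log2 1.05, SE 0.19, limma adjusted p = 2.4e-05) in 11 of 14 animals. AQP4 was 1.78-fold higher (0.83, SE 0.13) and GJA1 1.63-fold (0.71, SE 0.14), each in 13 of 14. S100B was higher by 0.50 in 11 of 14 (adjusted p = 0.0413), and this call was lost with no replicate block (adjusted p = 0.0563), by edgeR (adjusted p = 0.0527), without the hippocampus libraries of animals 33 and 40 (adjusted p = 0.0589) and without any 1 of animals 31, 32, 34, 35, 36, 39, 41, 42 and 43 (adjusted p = 0.0544 to 0.119). GLUL was lower by 0.26 in 13 of 14 (adjusted p = 0.00837). ALDH1L1 (-0.18), SLC1A2 (0.03) and SLC1A3 (0.12) did not pass.

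Occipital against prefrontal cortex gave 2 higher and 2 lower, against 47.9% of all rows. ALDH1L1 was higher in occipital cortex by 0.48 (limma adjusted p = 0.00127) in 14 of 14 animals and SLC1A2 by 0.45 (adjusted p = 0.0041) in 12 of 14. AQP4 was lower by 0.39 (adjusted p = 0.0106) in 10 of 14 and SLC1A3 lower by 0.23 (adjusted p = 0.0117, and 0.0629 by edgeR) in 12 of 14. S100B (0.14), FABP7 (-0.12), GJA1 (0.19) and GLUL (0.02) did not pass. So the order of the means ran hippocampus, prefrontal, occipital for AQP4, with each step called. For GJA1, FABP7 and S100B hippocampus came first and the cortices did not differ beyond their spread, though for S100B the call against occipital cortex was unsteady. For SLC1A2 hippocampus and occipital cortex did not differ, and both lay above prefrontal cortex.

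As a description with no test, over all 14 animals amygdala had the highest mean of the 4 regions for S100B (mean log2 16.10, against 15.38 in hippocampus), FABP7 (13.62 against 13.23), AQP4 (15.17 against 14.41), ALDH1L1 (12.16 against 12.06 in occipital cortex) and SLC1A3 (16.23 against 16.14 in prefrontal cortex). It had the lowest mean for SLC1A2 (13.34, against 13.73 in prefrontal cortex) and GLUL (17.00, against 17.03 in hippocampus). The gaps for ALDH1L1, SLC1A3 and GLUL are small. For FABP7 and SLC1A2 the order of the mean values differed between the treatment groups. In OvH FABP7 averaged 9522 in amygdala and 9627 in hippocampus, and in HT 19580 and 11997. In OvH SLC1A2 averaged 15699 in amygdala and 12625 in prefrontal cortex, and in HT 10130 and 14806. These rows were admitted by their level in amygdala and may hold another transcript there. The place of amygdala in the order is thus not a result.

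The wider lists were also counted between regions, where 50.7%, 43.4% and 47.9% of all rows were called in the order given here. Of 31 further astrocyte genes with a usable row, 15 were higher and 4 lower in hippocampus than in occipital cortex (median 0.30, against 0.03 over all rows), and 7 were higher and 2 lower than in prefrontal cortex (median 0.04, against -0.01). In occipital against prefrontal cortex 2 were higher and 13 lower (median -0.14, against -0.06). MLC1 of endfeet stood 0.78 higher in hippocampus than in occipital cortex and 0.33 higher than in prefrontal cortex, in the direction of AQP4. Of 12 endfoot and gap junction genes, MLC1 among them, 5 were higher and 1 lower in hippocampus than in occipital cortex (median 0.22). Against prefrontal cortex 2 were higher and 1 lower (median 0.08). Of 17 reactive astrocyte genes 7 were higher and 4 lower in hippocampus than in occipital cortex (median 0.43), and 10 were higher and 1 lower than in prefrontal cortex (median 0.40), where MAOB stood 0.40 higher. Of 9 microglia genes 9 were higher in hippocampus than in occipital cortex (median 1.06) and 9 than in prefrontal cortex (median 0.78). Of 9 oligodendrocyte genes 0 were higher and 1 lower in hippocampus than in occipital cortex (median 0.26), and 8 were higher and 0 lower than in prefrontal cortex (median 0.69). Of 6 oligodendrocyte precursor genes 4 were higher and 0 lower in hippocampus than in either cortex (medians 0.56 and 0.41). Of 4 ependyma and choroid plexus genes 4 were higher than in occipital cortex (median 2.43) and 2 than in prefrontal cortex (median 1.67), with 0 lower. Other lists leaned lower. Of 18 glutamate and glutamine cycle genes 4 were higher and 10 lower in hippocampus than in occipital cortex (median -0.28). Against prefrontal cortex 4 were higher and 5 lower (median -0.10). Of 13 neuron genes 2 were higher and 7 lower in hippocampus than in occipital cortex (median -0.24). Against prefrontal cortex 1 was higher and 4 lower (median -0.11). The part of other cells in these differences between regions was not tested.

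The members were then compared with each other across libraries. After the treatment means were subtracted, the 45 pairs of members over the 14 amygdala libraries had Pearson correlations from -0.38 to 0.83 with a median of 0.11. By Pearson's r a single pair passed, and 0 by rank (permutation test within treatment, Benjamini-Hochberg over 45 pairs): AQP4 with GJA1, at r = 0.83 (permutation p = 0.00032, adjusted p = 0.0144) and Spearman's rho = 0.79 (permutation p = 0.00146, adjusted p = 0.0657). Without the 2 libraries farthest from the AQP4 median r was 0.81. Both are membrane proteins of the astrocyte surface. S100B with FABP7 came next at r = 0.69 (permutation p = 0.0153, adjusted p = 0.138, rho = 0.60).

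In hippocampus S100B varied with FABP7 at r = 0.93 (permutation p = 5e-05, adjusted p = 0.0014 over 28 pairs) and rho = 0.86 (permutation p = 0.00024, adjusted p = 0.00672), with r = 0.87 without the 2 libraries farthest from the S100B median. Without animals 30 and 43 r was 0.89 and without 33 and 40 it was 0.94. It was the 1 pair of 28 that passed in hippocampus. The lowest correlations there were S100B with SLC1A3 at r = -0.73 and FABP7 with SLC1A3 at r = -0.70 (permutation test, adjusted p = 0.1645 for both). Without the 2 libraries farthest from the S100B or FABP7 median they were -0.41 and -0.51. In prefrontal cortex 0 of 28 pairs passed the permutation test, and S100B with FABP7 stood at r = 0.47 (permutation p = 0.179, rho = 0.43). The strongest pairs there were negative and just missed the threshold. FABP7 with SLC1A3 stood at r = -0.81 (permutation p = 0.00244, adjusted p = 0.0568, rho = -0.62). S100B with SLC1A2 stood at r = -0.80 (permutation p = 0.00406, adjusted p = 0.0568, rho = -0.67). In occipital cortex 4 libraries, of animals 33, 34, 37 and 40, stood apart, with a mean log2 level of neuron genes of 14.83 to 14.90 against at least 15.12 in the other 10, so no correlation over all 14 is given. These 4 held the 4 highest S100B values (45681 to 63972) and the 4 highest FABP7 values (6771 to 16460). Within the other 10 S100B with FABP7 stood at r = 0.66 (permutation p = 0.0797, adjusted p = 0.339 over 9 relations) and rho = 0.62 (permutation p = 0.101), and 0 of the 9 relations passed. Setting the 4 aside narrowed the range of both genes, so these 10 cannot decide the relation.

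**Figure D4:**
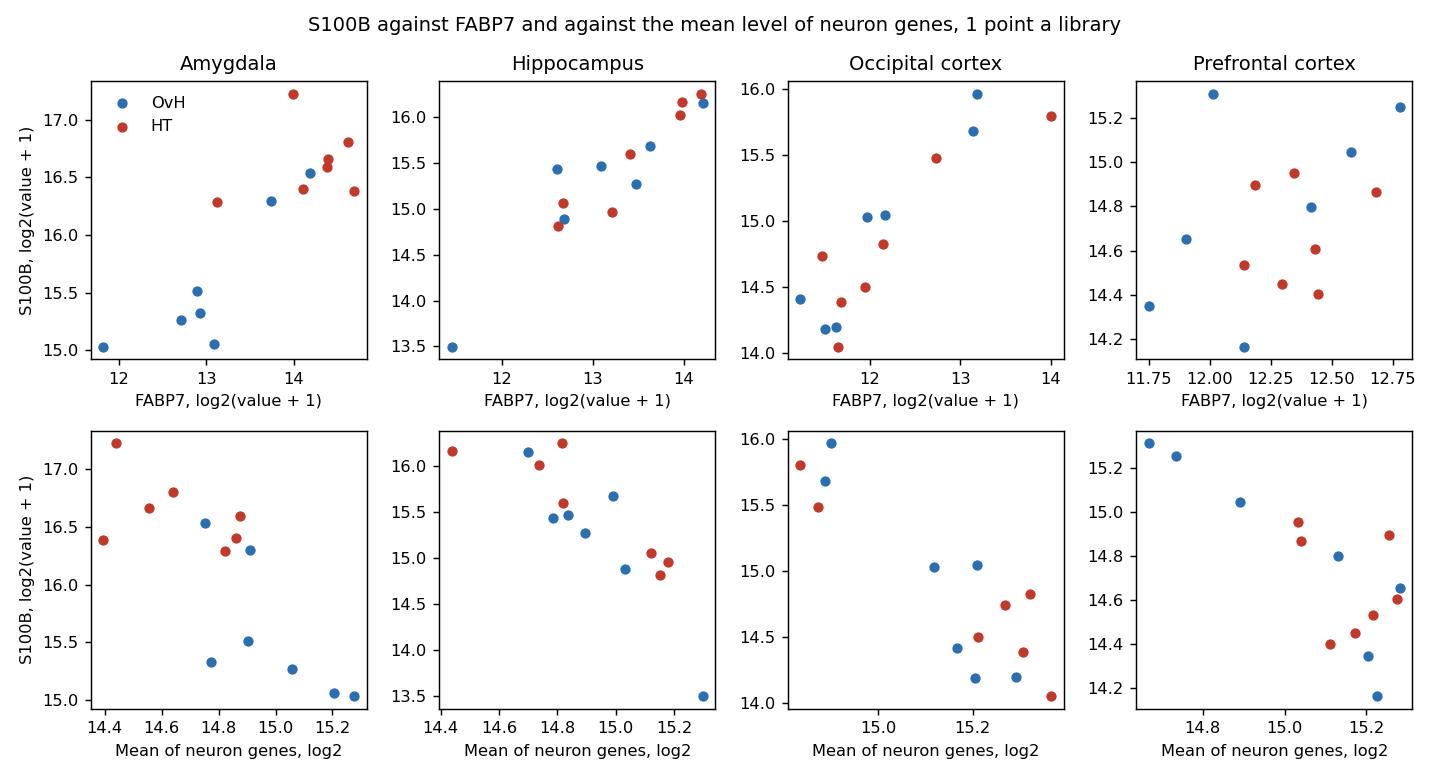
S100B against FABP7 (top) and against the mean log2 level of neuron genes (bottom) in 4 regions, 1 point for each of 14 libraries, red HT and blue OvH, on log2 axes that differ between panels. In hippocampus S100B rises with FABP7 (r = 0.93) and falls with the neuron mean (r = -0.85), and in occipital cortex 4 libraries with a neuron mean of 14.83 to 14.90 stand apart from the other 10.

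The members were also set against the mean level of neuron genes and of oligodendrocyte genes in each region, 68 relations in all. In hippocampus S100B stood at r = -0.85 with neurons (permutation p = 0.00014, adjusted p = 0.00385) and rho = -0.87 (permutation p = 0.00053, adjusted p = 0.018), with r = -0.86 without the 2 farthest libraries, -0.84 without animals 30 and 43 and -0.91 without 33 and 40. FABP7 stood at r = -0.75 there (permutation p = 0.00229, adjusted p = 0.026, rho = -0.68 with adjusted p = 0.0863), and at -0.66 without the 2 farthest libraries. In prefrontal cortex S100B stood at r = -0.79 with neurons (permutation p = 0.00694, adjusted p = 0.0524) and rho = -0.61 (permutation p = 0.044, adjusted p = 0.161), with r = -0.58 without the 2 farthest libraries. Within the 10 occipital libraries that lay together it stood at r = -0.52 (permutation p = 0.159, adjusted p = 0.34 over 9 relations, rho = -0.43). Those 10 were set apart by the neuron mean itself, which narrows its range, so this value cannot decide the relation. No test compared the regions. In prefrontal cortex S100B rose with oligodendrocyte genes at r = 0.81 (permutation p = 0.00217, adjusted p = 0.026) and rho = 0.80 (permutation p = 0.00285, adjusted p = 0.0388), with r = 0.85 without the 2 farthest libraries. SLC1A2 rose there with neuron genes at r = 0.93 (permutation p = 4e-05, adjusted p = 0.00272) and rho = 0.85 (permutation p = 0.00052, adjusted p = 0.018), with r = 0.91 without the 2 farthest libraries.

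In amygdala none of the 20 relations of members with these lists passed by Pearson's r. S100B stood at r = -0.59 with neuron genes (permutation p = 0.0328, adjusted p = 0.11, rho = -0.55) and at r = 0.29 with oligodendrocyte genes (permutation p = 0.311, adjusted p = 0.516, rho = 0.24). ALDH1L1 stood at r = -0.70 with neuron genes (permutation p = 0.00691, adjusted p = 0.0524) and passed by rank at rho = -0.80 (permutation p = 0.00185, adjusted p = 0.0314). The values of a point come from 1 library and share its depth and normalization.

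The genes whose pattern over the 14 amygdala libraries was most like the mean of the members, in deviations from the treatment means, were LYN (r = 0.87), CNN3 (0.85), BHLHE40 (0.85), STOM (0.84) and ZP2 (0.84). Among the members AQP4 (0.80), GJA1 (0.71) and GFAP (0.64) lay nearest to that mean, which they form part of, and ALDOC (0.20) and SLC1A2 (0.19) farthest. These correlations were picked as the highest over all named rows and carry no test.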

How the data were processed

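Messenger RNA was sequenced from 4 brain regions of 14 macaques (56 libraries). The submitters' processing notes name FastQC 0.1.1.2, Trimmomatic, STAR 2.7.3a, edgeR 3.28.0 and the build Mmul_10, with no settings. The libraries were stranded, per the labels' protocols. The counting program, its annotation and its strand setting are not given in the sources used here. The deposited signal is upper-quartile normalized by the authors: the upper quartile was 2818.9375 in every library. Whole reads were recovered from it (100% of values whole within 0.01 reads).

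Groups came from the labels, and nothing was left out of them. The main test was limma 3.58.1 with its intensity trend (R 4.3.3) on log2(value + 1), over rows with a mean of at least 10, two-sided, Benjamini-Hochberg at 0.05. edgeR 4.0.16 and DESeq2 1.42.0 on the recovered reads called 1018 and 1732 of 16129 amygdala rows, against 1112 by limma. A log2 difference on this scale understates changes of low rows. Correlations used deviations from treatment means and 100000 shuffles within treatment. The limma script was tested on simulated data.

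The libraries of an animal are paired by the labels: deviations from group means correlated at a mean of 0.287 to 0.494 per pair of regions, and in 54 of 56 libraries the best match was the animal itself. Alternatives were a pseudocount of 10, no filter, equal totals, covariates, edgeR, DESeq2, the replicate block and leaving out each animal.

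The members, lists and tests were chosen with earlier results of these data known. All members are named with values, and of each list at most the 4 genes with the smallest p in amygdala, with MLC1 and MAOB again between regions. The separation of 4 occipital libraries was seen after the values. No sequences are shown. One result of a listed gene is not reported here. Animals are separate, so p-values of HT against OvH in a region measure the spread between animals. Those between regions, and of amygdala minus the others, rest on differences within animals and how these vary over animals. Permutation p-values of correlations come from shuffles of libraries within treatment.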

Additional observations from a re-analysis of the deposited data

Results flagged for a closer look

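Of 68 groups of 7 libraries, 11 held a member library that stood far from the rest of its group, by a gap to its nearest neighbour above 0.568 of the group's range. For independent, normally distributed values about 1 in 20 groups would be flagged. The values here were not on the log2 scale and the groups share animals, so the 11 cannot be judged against that rate. In amygdala HT animal 36 was high for ALDH1L1 (7939, the next at 5368), HT animal 39 for GJA1 (34730, the next at 21940) and OvH animal 31 for GLUL (206800, the next at 138000). In hippocampus HT animal 41 was high for AQP4 (35950, the next at 26110) and OvH animal 31 for GLUL (166600, the next at 132900), so animal 31 stood apart for GLUL in both regions. OvH animal 30 was high for SLC1A3 (101600, the next at 67780) and OvH animal 43 low for SLC1A2 (9684, the next at 18010), and these are the hippocampus libraries that correlated best with each other's animal. In occipital cortex HT animal 40 was high for GJA1 (62330, the next at 22750) and for FABP7 (16460, the next at 6771), and this library had the lowest neuron mean of that region. In prefrontal cortex HT animal 38 (30970, the next at 22510) and OvH animal 35 (23480, the next at 18330) were high for GJA1.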

How the results depend on the processing

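Of the 2 members called in amygdala, 1 was called with equal totals, 1 by edgeR, and 0 with the oligodendrocyte or the ribosomal protein covariate, the latter chosen after seeing the data, as was leaving out animals 30 and 43 or 33 and 40. Leaving out 1 animal at a time left 1 to 2. For the difference between amygdala and the other regions, leaving out 1 animal gave 0 to 2. Over all amygdala rows, against 1112, 486 were called with the oligodendrocyte covariate, 1732 by DESeq2, and 548 (without 33) to 2362 (without 32) without 1 animal. For amygdala minus the others, against 0, 505 rows were called with equal totals and 0 to 1160 without 1 animal.

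The signs that turned belong to members not called. In amygdala, equal totals gave AQP4 -0.11, ALDH1L1 -0.13 and GLUL -0.013, and edgeR ALDH1L1 -0.0072. The oligodendrocyte covariate gave GFAP 0.041, and the ribosomal covariate GFAP 0.33, ALDH1L1 -0.27, SLC1A3 0.19 and GJA1 0.56. In hippocampus the oligodendrocyte covariate gave S100B -0.14, ALDH1L1 -0.18 and SLC1A3 0.16, and equal totals SLC1A3 0.014. Without animals 30 and 43 hippocampus gave ALDH1L1 -0.17, SLC1A2 -0.0077 and SLC1A3 0.10, and without 33 and 40 SLC1A3 0.032 and GJA1 0.065. Over the mean of 3 regions S100B stood at -0.10 with the oligodendrocyte covariate, -0.14 without 30 and 43 and -0.030 without 33 and 40. For amygdala minus the others, equal totals gave ALDH1L1 -0.043 and GLUL -0.17. Between regions SLC1A2, hippocampus against occipital cortex, stood at -0.012 with equal totals and -0.0011 by edgeR, and GLUL, occipital against prefrontal, at -0.0070 with equal totals. The cause was not tested.

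Leaving out 1 animal turned some signs too. In amygdala GFAP ranged from -0.25 to 0.11, AQP4 from -0.013 to 0.20, ALDH1L1 from -0.042 to 0.16, GJA1 from -0.20 to 0.0029 and ALDOC from -0.14 to 0.0035. In hippocampus ALDH1L1 ranged from -0.011 to 0.20, SLC1A3 from -0.071 to 0.090 and GJA1 from -0.18 to 0.033. In occipital cortex S100B ranged from -0.27 to 0.067, FABP7 from -0.18 to 0.29 and GJA1 from -0.056 to 0.27. S100B over the mean of 3 regions ranged from -0.057 to 0.14, SLC1A2 between hippocampus and occipital cortex from -0.043 to 0.13, and GLUL between occipital and prefrontal cortex from -0.012 to 0.054.

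With the replicate block over all regions 2 amygdala members were called, as without it (S100B adjusted p = 0.0265, FABP7 adjusted p = 0.0292, limma). With no replicate block the region comparisons called 6, 4 and 4 members, against 7, 5 and 4, losing GLUL and S100B as given above. The block changed no other call of a member. A pseudocount of 10 and no filter changed none. In amygdala the intervals of the members not called ran from -0.39 to 0.22 for the narrowest, SLC1A3, to -1.65 to 0.52 for the widest, SLC1A2, and smaller changes could not be told from 0.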
